A study of Homo sapiens with 4 samples.

Results

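Clone-named lncRNA genes are long noncoding RNA genes to which no gene symbol had been assigned. Ensembl lists such genes under the accession of a sequenced genomic clone, a dot and a number, such as AC093620.1. They were taken here as all rows of type lncRNA whose gene name contains a dot. In RNA recovered with the m6A reader YTHDF1, 711 of the 26819 distinct enriched windows in the table lay in such genes, which amounted to 285 of the 7550 genes listed. The 2 strongest of these genes, FP671120.4 and FP236383.3, have most of their windows inside ribosomal RNA precursor genes and are called the FP pair below. The main summaries are given with and without them. The comparison groups were all other lncRNA genes, with 709 windows in 234 genes, and protein-coding genes, with 24754 windows in 6679 genes.

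RNA immunoprecipitation followed by sequencing (RIP-seq) recovers the transcripts held by a protein and compares them with input RNA. SNU638 is an established gastric cancer cell line. The cells overexpressed FLAG-tagged YTHDF1, were kept without serum for 24 hours and received IFN-γ at 10 ng/ml for 24 hours, in the IP-YTHDF1 and the input group alike. Each group had 2 libraries, labelled as biological replicates, and ribosomal RNA had been removed during library preparation. The deposited table holds 1 value per 50 bp window for all 4 libraries together, so no value of a single library can be given, no test of IP-YTHDF1 against input could be run, and the depth is unknown. With overexpression and IFN-γ in all libraries, neither can be separated from binding, and the table holds no expression level by which to check the cell line.

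YTHDF1 is a cytoplasmic reader of N6-methyladenosine (m6A), a base modification of RNA most often placed in the consensus DRACH. It has been described as promoting the translation of methylated mRNAs and, in other work, their degradation. lncRNAs are transcripts without a long open reading frame, and many are antisense to a protein-coding gene, share its promoter in the opposite direction or run through it on the same strand. The 45S precursor of ribosomal RNA carries the 18S, 5.8S and 28S rRNAs followed by a short 3′ external transcribed spacer, which is cut away during ribosome assembly.

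Sequence was at hand for 27 of the 711 windows, in 20 genes, because these lay wholly inside a RefSeq promoter record of GRCh38.p14 (250 bases before to 50 bases after a start site). They are the windows nearest to annotated promoters and stand for no other windows. Of these 27, 19 lay in the promoter of a gene on the opposite strand, 12 in that of a gene on the same strand and 4 in both, with signal values from 1.02 to 2.63 and a median of 2.04. Shown are the 5 windows that contained GGAC, the form of the m6A consensus searched for first, and the 2 strongest windows without it. Each is read 5′ to 3′ on the strand of the lncRNA, and capitals mark GGAC.
AL139099.1 window: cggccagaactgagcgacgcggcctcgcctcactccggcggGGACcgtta
AL136982.7 window: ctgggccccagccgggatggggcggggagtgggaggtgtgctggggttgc
AL161772.1 window: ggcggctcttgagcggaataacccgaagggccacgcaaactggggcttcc
AP000695.2 window: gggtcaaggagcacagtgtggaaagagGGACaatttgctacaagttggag
AL135925.1 window: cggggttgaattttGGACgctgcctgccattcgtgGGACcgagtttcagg
AC005332.4 upstream window: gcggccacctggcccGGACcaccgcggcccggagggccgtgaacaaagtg
AC005332.4 downstream window: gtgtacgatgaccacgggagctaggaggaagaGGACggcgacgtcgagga

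AL139099.1 (chr14:49620816-49620865, minus strand, GRCh38) had a signal value of 2.63, and its window began 239 bases before the start site of RPL36AL, a ribosomal protein gene on the same strand. On the opposite strand, windows of MGAT2, an enzyme of N-glycan processing, overlapped it with values of 2.38 and 1.22. AL136982.7 (chr10:86970288-86970337, minus strand) also had 2.63, at the start site of AGAP11 on the opposite strand, and held no GGAC. AL161772.1 (chr13:20703208-20703257, minus strand) had 2.50 upstream of IL17D, a cytokine of the IL-17 family, on the opposite strand. AP000695.2 (chr21:36480282-36480331, plus strand) had 2.49 upstream of CLDN14, a tight junction claudin on the opposite strand. AL135925.1 (chr10:79826653-79826702, plus strand) had 2.32 and 2 copies of GGAC, within promoter records of both NUTM2B-AS1 and NUTM2E. The AC005332.4 windows (chr17:68205990-68206039 and chr17:68206040-68206089, plus strand) had 1.72 and 1.07, both ahead of the start site of AMZ2 on the same strand. Among these windows, those with GGAC thus ran from the strongest of the 27 down to one of the weakest.

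GGAC was found on the listed strand in 5 of the 27 windows (18.5%, 95% Wilson interval 8.18 to 36.7%), against 28.1% of 32 windows of other lncRNA genes and 23.6% of 885 protein-coding windows chosen in the same way. All 210696 promoter pieces of the same length held it in 17.1%. On the opposite strand GGAC was found in 6 of the 27 windows. DRACH, meaning A, G or T, then A or G, then A and C, then A, C or T, overlaps with GGAC unless the next base is G. It was found in 14 of the 27 windows (51.9%, 34 to 69.3%) on the listed strand and in 12 on the opposite strand, against 37.5% in other lncRNA genes and 39.2% in protein-coding genes, and 50.5% of all promoter pieces held it. The median GC share was 66% in the clone-named windows, 63% in other lncRNA windows, 70% in protein-coding windows and 58% in all pieces. The intervals of the clone-named windows took in all of the other shares given for each motif, so 27 windows are too few to set them apart, and a match is a run of letters and not a methylated site.

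The signal value is the score that the authors' table gives each window, and its scale is not stated in the sources used here, so values are compared only with each other. In clone-named lncRNA genes it ranged from 0.79 to 9.46 with a median of 2.02 (95% order-statistic interval 1.97 to 2.08) and quartiles of 1.73 and 2.40. Without the FP pair, the highest value was 5.51 and the median 2.01 (1.95 to 2.05). Windows of other lncRNA genes had a median of 1.99 (1.97 to 2.03) and quartiles of 1.77 and 2.35, and protein-coding windows a median of 1.83 (1.82 to 1.83) and quartiles of 1.52 and 2.16. The intervals of the lncRNA classes overlapped each other and lay above that of the protein-coding windows. They cover the spread over listed windows only, windows of one gene are not independent, and no test of these differences was run, because the windows are no replicates. All listed windows had passed a q-value of 0.05, so genes and windows without enrichment are not part of any of these distributions.

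**Figure D1:**
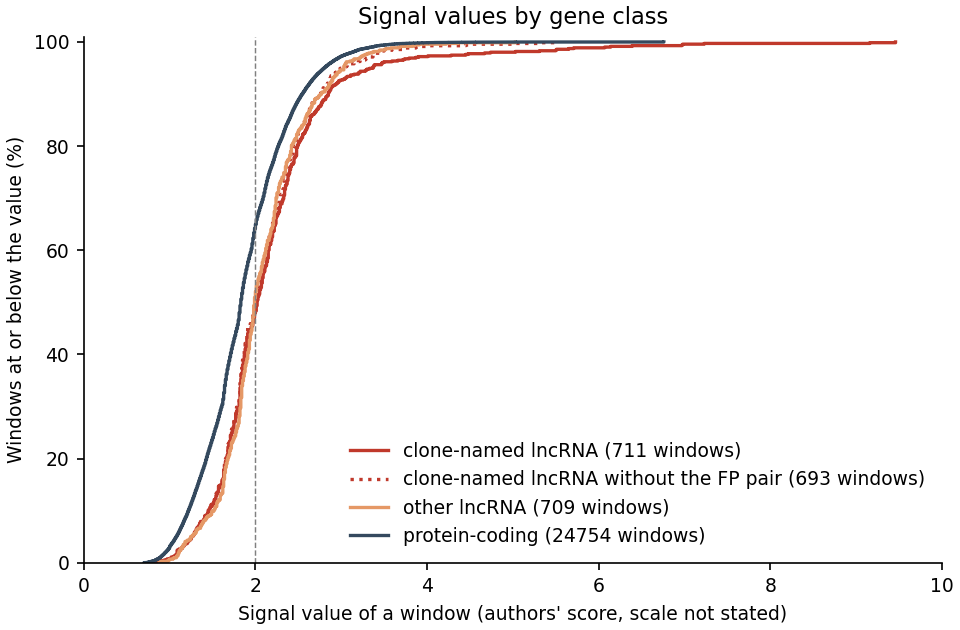
Cumulative share of windows (vertical axis, percent) at or below each signal value (horizontal axis, the authors' score) for clone-named lncRNA genes with and without the FP pair, other lncRNA genes and protein-coding genes. The lncRNA curves lie close together up to about the limit of 2 (dashed line) and to the right of the protein-coding curve, and above 7 only windows of the FP pair remain.

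A signal value of at least 2 was reached by 370 of the 711 windows (52%, 48.4 to 55.7%), while 37.2% of all windows in the table reached it. Without the FP pair the share was 50.8%, in other lncRNA genes 49.1% and in protein-coding genes 35.8%. A q-value of at most 0.001 was held by 301 windows (42.3%, 38.8 to 46%, and 40.8% without the FP pair), close to the 43.7% of the whole table, the 43.4% of other lncRNA genes and the 43.6% of protein-coding genes. By signal value the clone-named windows therefore stood above the table as a whole, and by q-value they did not. A value of at least 3 was found in 52 windows (7.31%), 35 of them outside the FP pair (5.05%), against 5.36% in other lncRNA genes and 2.8% in protein-coding genes. Of the 100 strongest windows of the table, 22 were clone-named, of which 14 belonged to the FP pair and 8 to other genes. This was 3.09% of the clone-named windows and 1.15% without the FP pair. The shares were 0.705% of other lncRNA windows, 0.218% of protein-coding windows and 0.373% of all windows.

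When each gene was represented by its strongest window, the classes lay closer. The median was 2.34 (2.26 to 2.41) in 285 clone-named genes, 2.31 in other lncRNA genes and 2.23 in protein-coding genes, and 76.1%, 75.6% and 69.5% of the genes had a window of at least 2. Clone-named genes were listed with fewer windows. A single window was listed in 146 of 285 genes (51.2%, 45.4 to 57%), compared with 43.6% of other lncRNA genes and 29% of protein-coding genes. The table lists at most 9 windows in a gene, and 13 clone-named genes (4.56%, and 3.89% without the FP pair) reached this number, against 9.83% and 12.8%. The mean was 2.49 windows per gene in clone-named (2.45 without the FP pair), 3.03 in other lncRNA and 3.71 in protein-coding genes. Joined where they touched, the 711 windows formed 502 regions, of which 381 were a single window. Such regions were 354 of 484 in other lncRNA genes, 12184 of 16949 in protein-coding genes and 13322 of 18442 in the whole table. Most regions were thus a single window in every class.

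**Figure D2:**
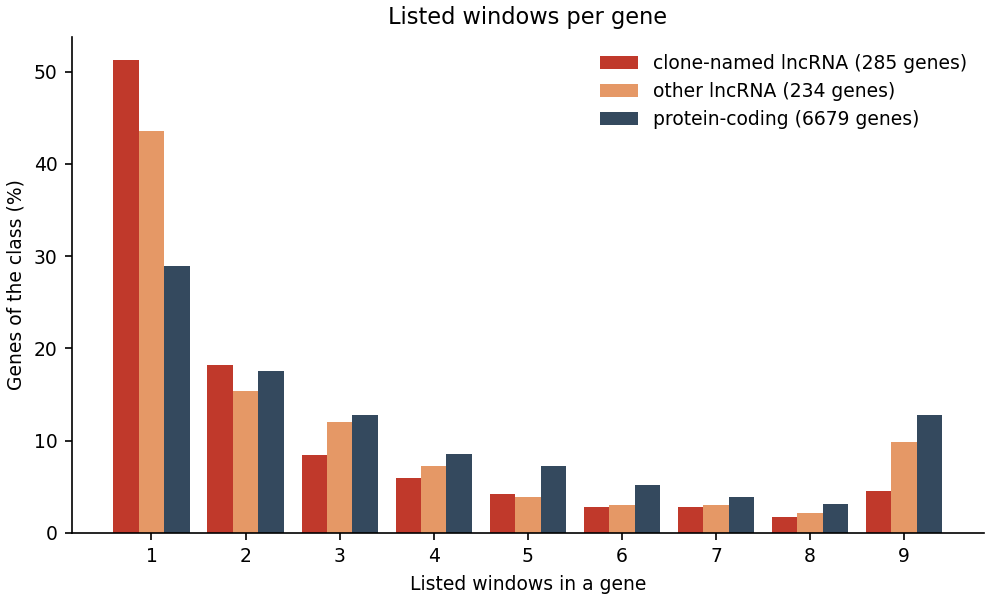
Share of genes (vertical axis, percent of the class) by the number of listed windows in the gene (horizontal axis) for clone-named lncRNA, other lncRNA and protein-coding genes. A single window was listed in 51.2%, 43.6% and 29% of the genes, and the bar at 9, the largest number listed, is lowest in clone-named genes at 4.56%.

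In each class the signal value was lower where more windows were listed in the gene. In clone-named genes the median was 2.22 where 1 window was listed, 1.96 where 2 to 8 were, and 1.84 where 9 were (1.81 without the FP pair). The corresponding medians were 2.12, 1.99 and 1.87 in other lncRNA genes and 2.07, 1.84 and 1.71 in protein-coding genes. An estimate of the number of windows tested in a gene rests on the assumption that p-values were adjusted within each gene by the Benjamini-Hochberg procedure, and is the ratio of q-value to p-value times the window's place in the gene's order of p-values. It had a median of 18 (17.5 without the FP pair) in clone-named genes, 28 in other lncRNA genes and 35 in protein-coding genes. In genes with an estimate of 1 to 10 windows the median signal was 2.22, 2.23 and 2.09 in these classes, and in genes with an estimate of 41 or more it was 1.98 (1.90 without the FP pair), 1.97 and 1.80. The part of gene length in the difference from protein-coding genes was not tested further.

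The highest signal value of the table belonged to the FP pair on chromosome 21. FP671120.4 (ENSG00000278996) had 9 windows that touched each other from chr21:8218921 to chr21:8219370 on the plus strand, with values, in order of position, of 2.85, 4.74, 9.46, 9.16, 6.07, 6.39, 5.50, 5.71 and 3.79. RefSeq places the end of the 28S gene RNA28SN2 at position 8218941 and that of the precursor gene RNA45SN2 at 8219302, which is 361 bp further on. The first window thus held the last 21 bp of the 28S gene, windows 2 to 7 lay wholly in the stretch between the end of 28S and the end of 45S, the eighth crossed the end of 45S, and the ninth lay past it. The 9.46 and 9.16, the highest values in the table, stood between 80 and 179 bp past the end of 28S.

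FP236383.3 (ENSG00000280441) had 6 windows in the same stretch of the next copy, from chr21:8402044 to chr21:8402343, which is 64 to 363 bp past the end of RNA28SN3 and stops at the last base of RNA45SN3. Their values in order were 4.67, 3.66, 5.65, 6.98, 7.23 and 6.97. A further window directly past the end of RNA45SN3 had 6.14. The other 2 lay far away. One had 4.28 at chr21:8422244-8422293, between the 45S genes and overlapping the pseudogene CDC27P10. The last had 3.02 at chr21:8446244-8446293, which starts 33 bp past the end of RNA28SN1. The profiles of the copies did not run alike, since FP671120.4 was highest within 179 bp of the end of 28S and FP236383.3 further along. rRNA genes are repeated in near-identical copies, so reads of one copy may have been counted in another, and how reads with several matches were treated is not given in the sources used here. RefSeq as given here lists no strand for these genes. Sequence of these windows was not used here.

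**Figure D3:**
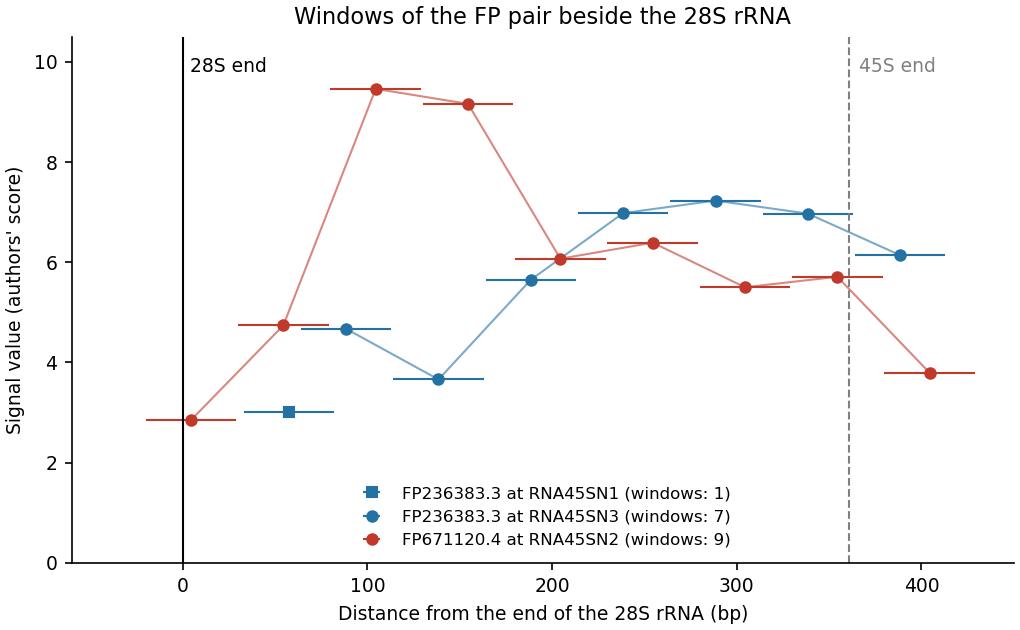
Signal value (vertical axis, the authors' score) of 17 of the 18 windows of FP671120.4 and FP236383.3 against distance from the end of the 28S rRNA gene (horizontal axis, bp), with horizontal bars for the 50 bp windows, the end of 28S as a solid line and the end of the 45S gene RNA45SN2 as a dashed line. FP671120.4 peaks at 9.46 soon after the end of 28S and FP236383.3 at 7.23 further on, and the window 20264 bp away is left out.

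The 18 windows of the FP pair had a median of 5.68 and a lowest value of 2.85, and 14 had a p-value listed as 0. They supplied 11 of the strongest 20 windows of the table, to which other clone-named genes added 2. Only 16 windows of any gene overlapped a RefSeq rRNA gene. Of these, 15 belonged to the FP pair, and the other was a window of RNA5-8SN2, a 5.8S rRNA gene, at 2.41. The libraries had been depleted of rRNA, and the part of that step in these values was not tested.

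Outside the FP pair, the 10 genes with the strongest windows reached 5.51 to 3.72, each with 1 or 2 listed windows. AC093620.1 was highest at 5.51 (chr7:5420378-5420427, plus strand, q = 5.31e-08). Its window shared 19 bp with that of AC092171.1, another clone-named gene, at 3.90. Both lay within TNRC18-AS1 and opposite the protein-coding gene TNRC18. AL391294.1 had 5.31 (chrX:81003501-81003550, minus strand) in a stretch where RefSeq places no gene. AC027601.2 had 5.03 (chr17:81231008-81231057, plus strand) within TEPSIN-AS1 and opposite TEPSIN, which encodes a protein of vesicle coats. For comparison, the strongest other lncRNA genes were LINC01877 with 5.03, MAP3K14-AS1 with 4.36 and ZKSCAN7-AS1 with 4.22, and the strongest protein-coding genes were GREB1 with 6.76, ASRGL1 with 5.63 and LRR1 with 5.22.

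AC004551.1 had values of 4.01 and 1.82 in touching windows (chr12:113005879-113005978, minus strand) opposite OAS2, an interferon-induced oligoadenylate synthetase of the antiviral response. AC068888.1 had 3.72 and 2.77 (chr12:53046335-53046384 and chr12:53053485-53053534, minus strand), both within TNS2-AS1, and only the weaker window lay opposite TNS2, a focal adhesion protein. Other genes of the 10 lay on the strand of a gene or pseudogene. AC099508.2 had 4.45 (chr16:75136609-75136658, plus strand) inside ZFP1, a zinc finger gene with no listed window there.

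In AC117481.1 and AL136419.1, the window of the clone-named gene overlapped that of its neighbour and the values differed. AC117481.1 had 4.48 (chr3:75214661-75214710, plus strand) and HNRNPA3P6, a pseudogene of an hnRNP protein, had 2.37 in a window sharing 21 bp. AL136419.1 had 3.74 (chr14:24039382-24039431, plus strand) against 5.15 in DHRS4L1, sharing 22 bp. The clone-named window was thus the stronger beside HNRNPA3P6 and the weaker beside DHRS4L1. The parent gene of HNRNPA3P6 has closely similar copies in the genome, so the counting of reads there is uncertain.

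The genes with 9 windows had lower values. AC083837.1 on chromosome 8 had 3.50 in its strongest window, a median of 2.82 and a lowest value of 1.62, and 5 of its windows reached 2. The strongest window lay opposite the cytokine gene IL7 and overlapped MITA1, a RefSeq lncRNA gene of unknown strand. AC099518.3 had 2.89 to 1.29 (chr16:19114003-19114502), with every window on a window of ITPRIPL2. BX890604.2 had 2.95 to 1.59 across 77450 bp of the X chromosome, in a stretch with the pseudogenes FAM239A and FAM239B. AC025419.1 had 2.34 to 1.63, with its strongest window within MSRB3-AS1, and AC074386.1 had 3.37 to 1.21, with 5 windows on windows of the pseudogene ARHGEF34P.

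AC133644.3 had 2.34 to 1.63, and 7 of its windows overlapped windows of CYTOR, a lncRNA that is itself present in near-identical copies. AP000317.2 had 2.35 to 1.54 inside SLC5A3, a myo-inositol transporter, and MRPS6, a mitochondrial ribosomal protein, with 7 shared windows. AC010655.4 had 2.60 to 1.23, with its strongest window inside HILPDA, which encodes a hypoxia-inducible lipid droplet protein. Of its 8 shared windows, 3 overlapped windows of HILPDA and the others those of AC010655.2, another clone-named gene. With the FP pair these are the 10 genes of 13 with the highest medians. Of all 8 named here besides the pair, AC083837.1, BX890604.2 and AC025419.1 shared no window with a different gene on the same strand.

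At the low end, the genes whose strongest window was weakest each had 1 window. AL627171.2 had 0.87 (q = 0.00101) within RN7SL2, the RNA of the signal recognition particle. AC138123.1 had 1.08 where the ribosomal protein pseudogene RPL41P5 had 2.40, in windows sharing 17 bp. AC140479.5 had 1.09 in a pseudogene, AL022311.1 had 1.09 inside EIF3L, a subunit of a translation initiation factor, and AC005726.2 had 1.11 opposite BLTP2. These windows had passed the q-value limit although their signal values lay well below the class median.

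Clone-named windows often shared their bases with a window listed under another gene. Of the 711, 254 (35.7%, 32.3 to 39.3%, and 36.7% without the FP pair) overlapped one that the same strand lists under a different gene, compared with 14.5% (12.1 to 17.3%) of other lncRNA windows and 10% of protein-coding windows. The partner was a protein-coding gene for 180 windows (25.3%), against 9.03% of other lncRNA windows. In 73 clone-named genes (25.6%) every listed window was shared in this way, against 10.3% of other lncRNA genes and 7.2% of protein-coding genes. In 45 clone-named genes (15.8%) every window was shared with a protein-coding gene. Another 186 genes (65.3%) had no shared window. On the opposite strand, 39 windows (5.49%) overlapped a listed window, against 3.1% and 0.63%.

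The 180 windows shared with protein-coding genes lay in 70 clone-named and 74 protein-coding genes. Their median was 1.88, and that of the partner windows 1.96. Within overlapping windows the median difference, clone-named minus protein-coding, was 0.01 with quartiles of -0.20 and 0.22. The clone-named value was higher in 94, lower in 82 and equal in 4, and in 95 (52.8%) the values were within 0.25 of each other. Where at least 45 of the 50 bp were shared, this was so in 67.5% of 40 windows, and where fewer than 15 were, in 33.3% of 9. No such share was taken for windows that do not overlap. How reads were assigned to overlapping genes is not given in the sources used here, this closeness is a description, and which of the overlapping transcripts was recovered cannot be told apart from the table.

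**Figure D4:**
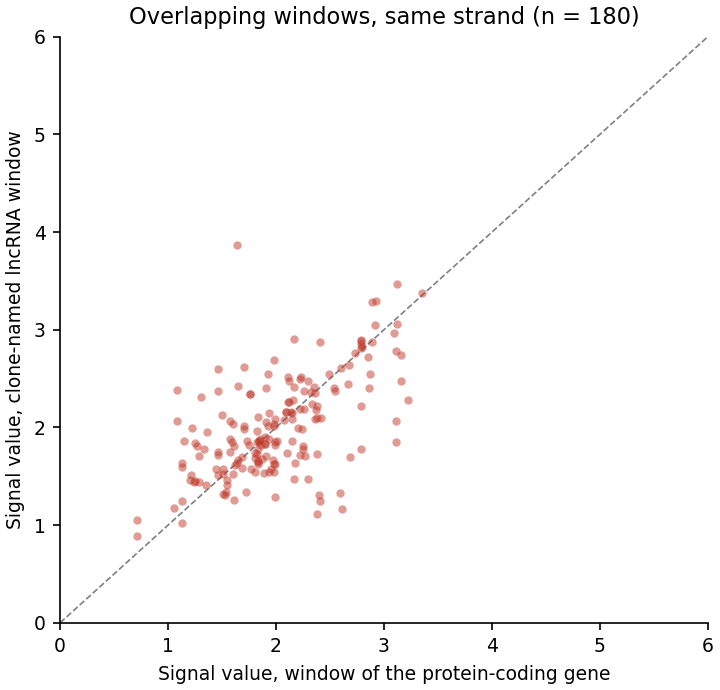
Signal value of 180 clone-named lncRNA windows (vertical axis, the authors' score) against that of the overlapping window of a protein-coding gene on the same strand (horizontal axis). Points lie on both sides of the dashed line of equal values, 94 above and 82 below it.

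Gene by gene, AC105036.3 had 8 windows on windows of PTPN9, a tyrosine phosphatase, with medians of 1.66 and 1.82. AC004917.1 and CCDC71L shared 9 windows with medians of 1.41 and 1.55, and AP000317.2 and SLC5A3 shared 6 with 1.96 and 1.99. AC068790.8 and ZNF664, a zinc finger gene, shared 6 with 1.64 and 1.65. AC099518.3 and ITPRIPL2 shared 9 with 2.15 and 2.79. The clone-named median was thus the lower in each of these 5 pairs. Within overlapping windows, the median difference, clone-named minus protein-coding, was -0.19, -0.09, -0.12, 0.01 and -0.13 in the same order, so for ZNF664 it was not lower. AC022167.2 and PMM2, a phosphomannomutase of protein glycosylation, shared 6 windows with medians of 1.75 and 1.23. AL671762.1 and HSPA1B, an inducible heat shock chaperone, shared 6 with medians of 1.66 and 1.24. These are all pairs with at least 6 shared windows, and beside PMM2 and HSPA1B the clone-named median was the higher. HSPA1B has a near-identical neighbour copy, so its reads may be divided between copies.

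By position, each of the 711 windows was placed in the first of the classes below that applied, and the classes had different values. The 15 windows in or across a 45S rRNA gene had a median of 5.71. The 180 shared with protein-coding genes had 1.88, and the 74 shared with noncoding genes only had 1.90 (10.4% of the windows). A further 99 windows (13.9%) lay inside a RefSeq protein-coding gene on the same strand that had no listed window there, with a median of 1.87. Of the windows left, 120 (16.9% of the 711) lay inside a protein-coding gene on the opposite strand and had a median of 2.08. Another 222 (31.2%) lay outside every protein-coding gene, with 2.09. A single window left, of AC104781.2 at 2.64, lay in a gene of unknown strand. Over all classes, 416 windows (58.5%) lay inside a protein-coding gene and 140 (19.7%) inside one on the opposite strand. Windows on the strand of a coding gene, and those shared with noncoding genes, were thus near the protein-coding median of 1.83, and unshared windows opposite coding genes or outside them lay higher. A value of at least 2 was reached by 45.6% of the windows shared with protein-coding genes, 44.6% of those shared with noncoding genes, 41.4% of those inside a coding gene on its strand, 56.7% of those opposite one and 58.6% of those outside. A q-value of at most 0.001 ran differently, with 52.2%, 44.6%, 26.3%, 40.8% and 37.8% of the windows in the same order of classes.

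**Figure D5:**
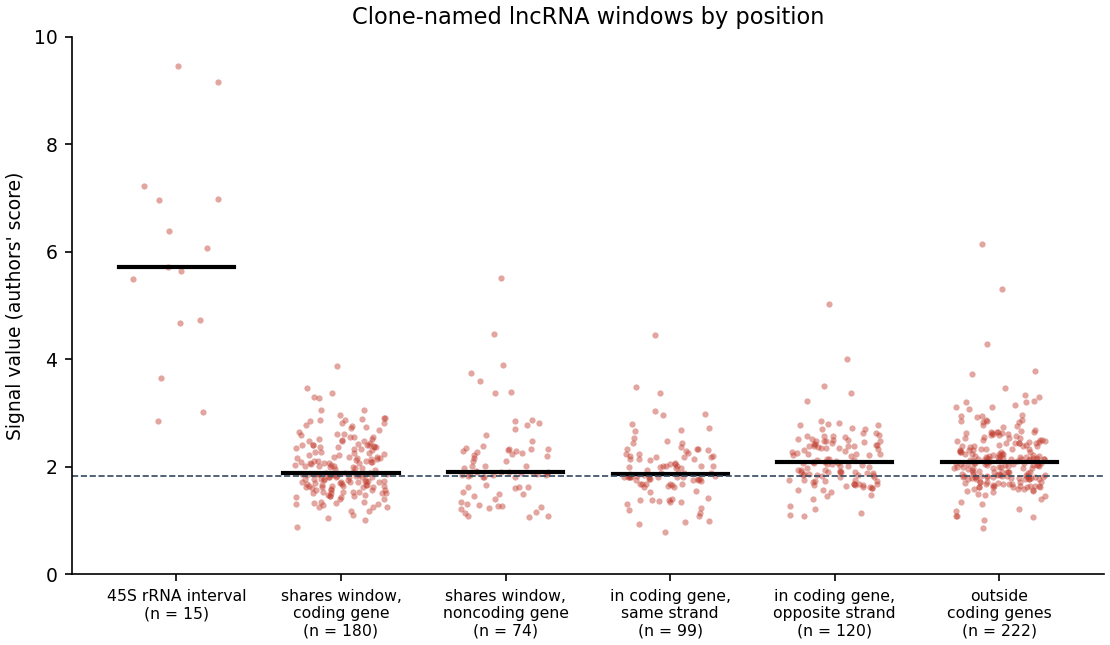
Signal value (vertical axis, the authors' score) of each clone-named lncRNA window by its position relative to other genes (horizontal axis), with black bars for the medians and a dashed line at the protein-coding median of 1.83. The 45S rRNA windows stand apart with a median of 5.71, and the medians of the other classes run from 1.87 to 2.09. Points are spread sideways at random, and 1 window in a gene of unknown strand is left out.

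In other lncRNA genes this order was not seen. There the windows shared with protein-coding genes had a median of 2.12, those inside a coding gene on its strand 1.99, those opposite one 1.98 and those outside 1.98. In protein-coding genes it was seen in part. Their windows opposite (64) or outside (316) RefSeq coding genes had medians of 1.92 and 1.93. Those inside one on its strand had 1.82, and those shared with another protein-coding gene 1.91. The shares also differed. By the same placing, 53% of other lncRNA windows were in the class outside protein-coding genes and 23.4% in the class opposite one. Over all classes, 39.9% of them lay inside a protein-coding gene and 25.5% inside one on the opposite strand. The difference between the classes in this order was not tested, since windows of 1 table are no replicates.

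No clone name matched a RefSeq symbol or synonym, but some of the genes lie where RefSeq places a lncRNA gene. In 78 of the 285 genes (27.4%, 22.5 to 32.8%) at least 1 window lay inside a RefSeq lncRNA gene on the same strand. In 59 of these at least 1 such RefSeq gene had a symbol. Of the 59, 45 had one ending in AS and a number or in DT, the marks of antisense and divergent transcripts. RefSeq lncRNA genes of unknown strand, inside which 79 windows (11.1%) lay, were not counted here, so these numbers are lower limits. Counted by window, 27% lay inside a RefSeq lncRNA gene on the same strand, against 80.1% of other lncRNA windows. RefSeq lncRNA genes of unknown strand held 1.41% of other lncRNA windows. In 96 genes (33.7%) a window lay inside a protein-coding gene on the same strand and in 88 (30.9%) inside one on the opposite strand. For the same strand, this was 39.8% of clone-named windows, against 12.7% of other lncRNA windows. No RefSeq gene of any kind was overlapped by 51 windows (7.17%), against 4.09% of other lncRNA windows and 0.891% of the whole table.

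Relative to start sites, 133 windows (18.7%) lay within 500 bp of a RefSeq start on the same strand, less than the 21.9% of other lncRNA and the 25.7% of protein-coding windows. Up to 1000 bp upstream of a protein-coding start on the opposite strand, where divergent transcripts begin, lay 55 windows (7.74%, 5.99 to 9.93%). This was less than the 12.3% of other lncRNA windows and more than the 3.79% of protein-coding windows and the 4.1% of the whole table. Chromosome 17 held 95 clone-named windows (13.4%, against 8.01% of protein-coding windows) and chromosome 21 held 38 (5.34% against 1.29%), 18 of which were those of the FP pair.

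Short structured RNAs were rare among these windows, and no window overlapped a miRNA hairpin. AL592295.4 overlapped the tRNA genes TRE-TTC4-2 with 2.64 and TRV-CAC1-1 with 2.03. AC010624.5 had 2.59 within SNAR-B2, AC016876.2 had 1.62 within the snoRNA gene SNORA48, and AL360012.1 had 1.45 within RNU11, an RNA of the minor spliceosome. With AL627171.2 in RN7SL2 at 0.87, these small RNA windows lay on both sides of the class median.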

How the data were processed

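RIP-seq libraries of SNU638 cells (2 IP-YTHDF1, 2 input) were described from 1 deposited table of annotated peaks. The submitters' processing notes name STAR 2.7.3a and GRCh38, and the peak caller is not given in the sources used here. The signal value and the rank were treated as a score deposited by the authors, of unstated scale. The p-values and q-values are also the authors' deposited values. The number of windows tested in a gene was estimated, where the p-value exceeded 1e-14, as q-value over p-value times the window's place in the gene's order of p-values, assuming Benjamini-Hochberg adjustment within genes. No column held values of a single library, so the edgeR test planned for counts was not possible and 0 such columns were left unused.

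Of 26820 rows, 1 exact repeat was dropped, and starts were counted from 1. Windows were compared by overlap of at least 1 bp with each other and, as whole windows unless stated, with RefSeq genes of GRCh38.p14, of which 58961 were placed and 28676 had a strand. Of 23172 protein-coding windows with a unique symbol, 97.3% lay in the same RefSeq gene. Medians carry order-statistic intervals and shares Wilson intervals (95%), which cover counting over listed windows only. A RefSeq gene without a strand took that of the listed windows with its symbol and chromosome, where these had a single strand. Python 3.11.15, pandas 2.3.3 and SciPy 1.17.1 were used. The estimate of tested windows and the interval overlaps were tested on simulated data, and the joining of windows on a small made-up example. The position classes, partner choice and motif counts were not tested in this way.

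Members, gene lists and comparisons were chosen with earlier results of these data known. Named were the FP pair, the 10 further genes with the strongest window, the genes with most windows (the 10 with the highest median signal, as 13 tied), the 5 with the weakest strongest window, any window in an rRNA gene, the overlapping genes of each, and the 3 strongest genes of each comparison class. The result of 1 of the 10 is not reported here. Other genes that are named (partners by number of shared windows, small RNA overlaps and promoter windows) were chosen after their values were seen. Alternatives changed the q-value limit, the unit counted, the shared windows, the FP pair and the genes kept.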

Additional observations from a re-analysis of the deposited data

How the results depend on the processing

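The median signal value of 2.02 became 2.38 for windows with a q-value of at most 0.001, 2.34 for the strongest window of each gene and 2.11 for joined regions. The share of at least 2 (52%) became 82.1%, 76.1% and 58.2%. The stricter q-value left 301 windows in 153 genes. With 1 window per gene, 285 windows remained, 52.6% of which had a q-value of at most 0.001, and the difference from protein-coding genes of 0.19 became 0.11. Without windows shared with another gene, 457 windows remained, the difference from protein-coding genes was 0.25, 55.8% reached 2 and 38.1% had a q-value of at most 0.001. Leaving out the FP pair moved none of these values beyond their intervals. All 711 clone-named windows lay on chromosomes 1 to 22, X and Y. Keeping only these chromosomes therefore could not change the clone-named values.

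The next alternatives were chosen after seeing the data. In genes with 20 or fewer tested windows (227 windows, 152 genes) the median was 2.12, 58.6% reached 2, 35.2% had a q-value of at most 0.001, and the difference from other lncRNA genes turned from 0.03 to -0.03. Genes with more than 20 tested windows numbered 130. Outside protein-coding genes of the same strand, and without shared windows and rRNA genes (343 windows, 166 genes), the median was 2.09, 58% reached 2 and the difference from other lncRNA genes was 0.11. The order of clone-named and other lncRNA genes thus depended on the windows kept, while clone-named windows lay above protein-coding windows under every alternative run. The cause was not tested.

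No paired analysis was possible because replicates have no values of their own in the table, so leaving out replicates and the replicate block were not run. The motif search with wider windows was not run for want of a genome. Counting any overlap in place of whole windows moved the share inside RefSeq protein-coding genes from 58.5% to 58.9%. Depth limits on these values are unknown, since the table gives no counts.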
